A study of Mus musculus with 4 samples.

Results

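Germ layer and primed-state differentiation genes were examined in mouse ES cells treated with siRNA against Rif1. The set holds 40 genes. Every non-control probe that the array files name after one of them was taken, which gave 54 of the 39429 probes, and each of the 40 genes had at least 1. By role, the genes are primitive streak and mesoderm regulators, endoderm regulators and markers, neural regulators and markers, primed-state transcription factors with Fgf5, secreted signals with their antagonists, and targets of BMP signaling. The question addressed is whether ES cells with less Rif1 express differentiation genes.

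Rif1 is a nuclear protein that acts in DNA replication timing, DNA repair and gene silencing. All samples were E14tg2a cells, a mouse ES cell line, which per the study's methods were grown on gelatin without feeders in medium with fetal bovine serum and LIF, a cytokine that holds ES cells undifferentiated. Total RNA was hybridized to 4 one-color arrays, 1 for each condition. These were untreated cells (0 h), a control siRNA culture of 72 h, and Rif1 siRNA cultures of 48 h and of 72 h. Per the methods, the knockdown used the siRNAs mRif1#2 and NC#1 together. With 1 array per condition no difference has a replicate check, so no p-value is given and a difference counted as called when it was over 2-fold. The 48 h array was set against the 72 h control siRNA array, so siRNA and time cannot be told apart in that comparison. Both Rif1 siRNA comparisons share the control siRNA array.

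ES cells resemble the early epiblast of the mouse embryo. On leaving that state they pass through a primed state marked by Fgf5, Otx2 and Pou3f1, after which Nodal, BMP, Wnt and FGF signals direct them through the primitive streak to mesoderm and endoderm, or to neural fates. Lefty proteins and Cer1 restrain Nodal, and BMP signals act in part by inducing ID proteins, which hold back neural differentiation of ES cells in serum and LIF.

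Promoters are shown for the BMP targets Id2, Id3, Msx1 and Msx2, because these were higher on both Rif1 siRNA arrays than on both others, and for Gsc and Afp, because these were called higher at both times. Each sequence runs 5′ to 3′ on the gene's strand over 250 bases before the start of the gene and its first 30 bases, taken from RefSeq on GRCm38.p6. They lie at chr12:25096063-25096342 (minus strand, Id2), chr4:136143572-136143851 (plus, Id3), chr5:37824556-37824835 (minus, Msx1), chr13:53472751-53473030 (minus, Msx2), chr12:104473207-104473486 (minus, Gsc) and chr5:90490464-90490743 (plus, Afp). Capitals mark GGCGCC and GCCGNCGC, letters found in binding sites of BMP-activated SMAD proteins, in the first 4 sequences. In the last 2 they mark TATAAA, the letters of a TATA box, and in Afp also GTTAAT, a part of HNF1 binding sites. Counted from the start of the gene, TATAAA lies at −164 to −159 in Gsc and at −7 to −2 in Afp. Whether these letters act as a TATA box was not tested.
Id2: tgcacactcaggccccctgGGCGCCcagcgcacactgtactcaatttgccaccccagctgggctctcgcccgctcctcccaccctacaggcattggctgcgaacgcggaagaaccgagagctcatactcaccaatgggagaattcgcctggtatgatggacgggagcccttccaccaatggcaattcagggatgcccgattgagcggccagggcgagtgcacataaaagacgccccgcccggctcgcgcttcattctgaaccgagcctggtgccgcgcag
Id3: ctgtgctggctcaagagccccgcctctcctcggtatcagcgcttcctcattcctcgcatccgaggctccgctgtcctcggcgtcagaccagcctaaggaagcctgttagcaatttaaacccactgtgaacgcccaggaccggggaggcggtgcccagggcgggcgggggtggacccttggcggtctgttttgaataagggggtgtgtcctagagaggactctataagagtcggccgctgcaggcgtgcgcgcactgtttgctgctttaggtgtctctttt
Msx1: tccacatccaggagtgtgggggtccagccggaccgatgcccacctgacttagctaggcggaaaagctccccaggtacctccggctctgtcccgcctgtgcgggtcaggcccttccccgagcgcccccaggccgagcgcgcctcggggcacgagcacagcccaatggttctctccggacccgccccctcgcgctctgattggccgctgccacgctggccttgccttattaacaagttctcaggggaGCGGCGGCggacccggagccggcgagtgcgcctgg
Msx2: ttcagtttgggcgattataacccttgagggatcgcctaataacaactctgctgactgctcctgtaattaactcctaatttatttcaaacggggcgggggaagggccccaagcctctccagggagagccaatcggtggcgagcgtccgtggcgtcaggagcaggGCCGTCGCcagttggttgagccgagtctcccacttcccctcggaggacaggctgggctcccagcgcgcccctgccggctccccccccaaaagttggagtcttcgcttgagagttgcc
Gsc: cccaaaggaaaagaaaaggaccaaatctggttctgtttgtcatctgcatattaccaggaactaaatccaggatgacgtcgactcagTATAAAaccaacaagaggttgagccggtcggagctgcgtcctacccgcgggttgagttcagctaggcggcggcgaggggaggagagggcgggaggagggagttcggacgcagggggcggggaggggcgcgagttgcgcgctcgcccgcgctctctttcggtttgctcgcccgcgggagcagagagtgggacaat
Afp: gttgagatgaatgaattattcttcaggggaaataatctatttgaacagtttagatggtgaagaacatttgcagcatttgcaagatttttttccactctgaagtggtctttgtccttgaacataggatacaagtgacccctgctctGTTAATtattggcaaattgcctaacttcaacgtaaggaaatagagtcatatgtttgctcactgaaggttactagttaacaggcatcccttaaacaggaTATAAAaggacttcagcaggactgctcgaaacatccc

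Both strands were searched, with N for any base. GGCGCC was found in 10.9% of 32851 promoters of this length, GCCGNCGC in 8.45%, TATAAA in 13.1% and GTTAAT in 6.85%. Of the 40 genes, 30 had a promoter sequence, and the same letters were found in 4, 7, 5 and 8 of them, respectively. These counts are by gene, over 38 promoters of the 30 genes, whereas the shares are by promoter. Id3 holds neither GGCGCC nor GCCGNCGC in this window, Id2 holds the first, and Msx1 and Msx2 hold the second. GCCGNCGC also occurs in Gsc, and GTTAAT in Msx1 and Msx2, where they are not in capitals. These 4 motifs were kept, after the matches were seen, from 14 looked for, so the matches only describe the letters of these windows.

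A few facts of the whole arrays bear on the values. Levels are given as the processed signal of a probe divided by the 75th percentile of its array. In the order untreated, control siRNA, 48 h and 72 h of knockdown, 58.8%, 62.8%, 71.5% and 74.1% of spots were well above background, and the lowest level well above background was 0.0236, 0.0159, 0.00779 and 0.00543. Weak genes could thus be measured to a lower level on the Rif1 siRNA arrays. The Rif1 transcript stood at 5.55, 5.42, 2.15 and 4.15, so against control siRNA it was called lower at 48 h (−1.34 on the log2 scale, 2.53-fold), while at 72 h the difference was −0.39 (1.31-fold) and did not pass 2-fold. Of 15 probes of ES cell markers (Pou5f1, Sox2, Nanog and others), 0 were called at either time, while 7 of 8 probes of 2C-like cells (Zscan4 and others), whose genes mark the 2-cell embryo, were called higher at both times. Their summed level was 10.1, 17.3, 192 and 224, and the part of such cells in the results was not tested. In the same order, markers of fibroblasts summed to 4.23, 3.81, 4.44 and 4.46, most of it from Thy1, with 0 of 5 compared probes called at either time. The other fibroblast markers were weaker, and the collagen genes Col1a1 and Col1a2 differed from control siRNA by 0.53 and 0.55 (log2) at 48 h and 0.82 and 0.82 at 72 h, while Postn and Lum did not pass the filter. Markers of trophoblast, among them Cdx2 and Gata3, summed to 0.224, 0.217, 0.415 and 0.399, with 2 of 6 compared probes called higher at 72 h and 1 at 48 h. Over all probes, the share called higher was 2.83% at 72 h and 3.18% at 48 h, and that called lower 1.00% and 1.19%. For groups of this size, the 0 calls of ES cell and fibroblast markers are near the count of all probes. All 4 trophoblast probes measured on both arrays had positive differences, with medians of 0.53 at 48 h and 0.71 at 72 h, and Elf5 was below the limit of the control siRNA array throughout.

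Most of the differentiation genes gave a measurable signal in these ES cells. Of their 54 probes, 45 probes of 38 genes passed the filter on low values. At least 1 probe was well above background on all 4 arrays for 32 genes. Gsc and Mesp1 were so on 3 arrays, and Afp and Neurog2 on the 2 Rif1 siRNA arrays only. Mixl1 and Hoxb1, homeobox genes of the streak, Isl1, a regulator of cardiac mesoderm, and Cer1, an inhibitor of Nodal, stayed at background throughout. For 12 genes there was more than 1 probe, and the probe with the highest mean level among those measured on most arrays stands for the gene.

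**Figure D1:**
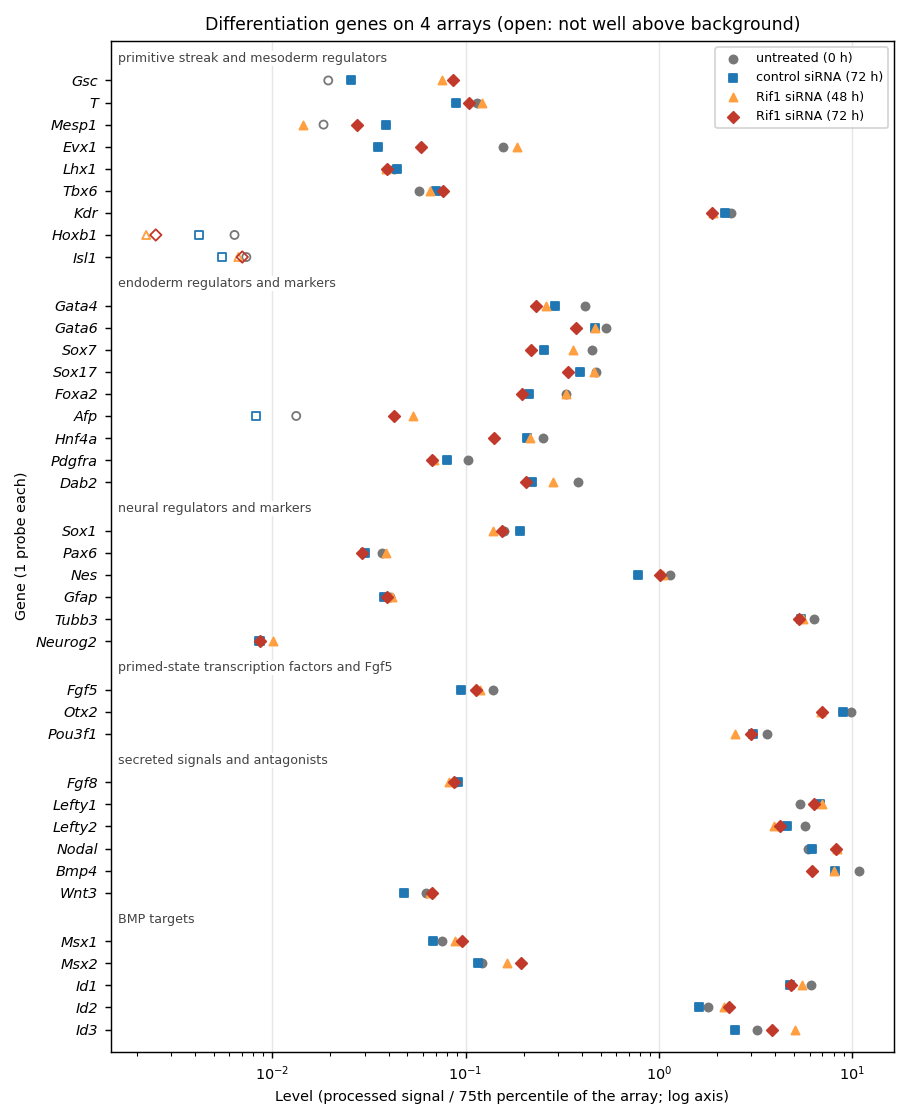
Level of each gene (x axis, log scale, processed signal over the 75th percentile of the array) on the 4 arrays, with genes by role on the y axis and 1 point per array. Open points are not well above background. For most genes the 4 points lie close together, whereas Gsc, Afp, Evx1 and Mesp1 are spread.

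Few of the genes were called after Rif1 knockdown. At 72 h, of 43 probes that could be compared with control siRNA, 2 were called higher (Gsc and Afp) and 1 lower (a probe of Fgf8). Over all 27690 probes compared, 2.83% were called higher and 1.00% lower. At 48 h, 4 of 43 probes were called higher (Evx1, Afp, Gsc and Id3) and 2 lower (Mesp1 and the same Fgf8 probe), beside 3.18% and 1.19% of all probes. With normexp background correction, 0 were called higher at 72 h and 2 at 48 h. The median log2 difference of the differentiation genes was −0.07 at 72 h, equal to that of all probes at this precision (−0.07), and 33 of 41 probes measured on both arrays (80.5%) lay within 0.5 of 0, fewer than the 91.1% of all probes. At 48 h their median was 0.15, against −0.07 over all probes. This sign depends on the array compared with, since against untreated cells the 48 h median was −0.16 (−0.08 over all probes). In a bulk sample, a change in the number of cells that express a gene and a change in RNA per cell cannot be told apart.

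**Figure D2:**
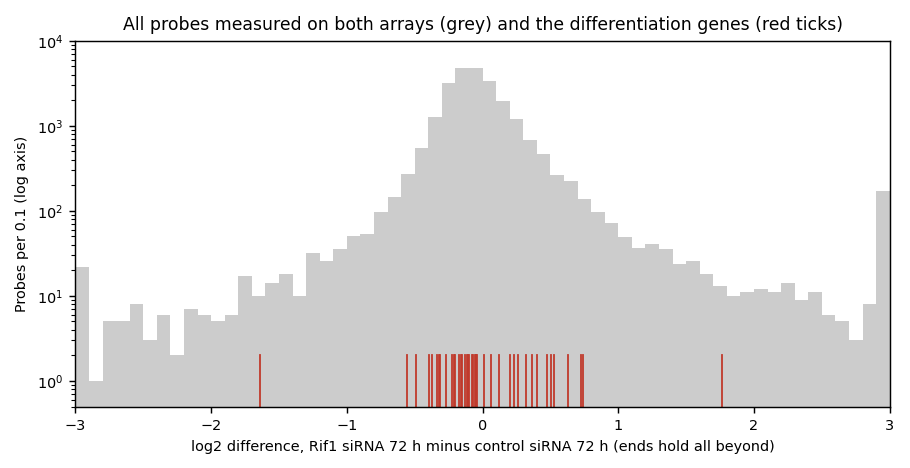
Number of probes (y axis, log scale) by log2 difference of Rif1 siRNA against control siRNA at 72 h (x axis), over the 24312 probes that passed the filter and could be measured on each array, with the 41 probes of the differentiation genes as red ticks. The ticks crowd around 0, and 1 probe of Fgf8 (−1.64) and Gsc (1.76) stand off on either side.

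The same genes were compared between both cultures without Rif1 siRNA and between both knockdown times. With control siRNA at 72 h, 1 of 41 probes was called higher than in untreated cells (the Fgf8 probe) and 2 lower (Evx1 and 1 of the probes of Foxa2), beside 0.659% and 1.16% of all probes. Their median was −0.27, against −0.01 over all probes. Between 72 h and 48 h of Rif1 siRNA, 0 of 43 probes were called higher and 1 lower (Evx1), beside 0.491% and 0.679% of all probes, with a median of −0.08 against −0.01. As a scale for single genes, the SD of the log2 difference between control siRNA and untreated cells over all probes was 0.42 below a level of 0.1, 0.23 between 0.1 and 1 and 0.13 above 1. This SD includes any true differences between those cultures and is not a replicate error. In the Rif1 siRNA comparisons the SD of probes above a level of 1 was 0.43 at each time, and the 5th to 95th percentile of their differences ran from −0.32 to 0.23 at 72 h and from −0.35 to 0.32 at 48 h.

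**Figure D3:**
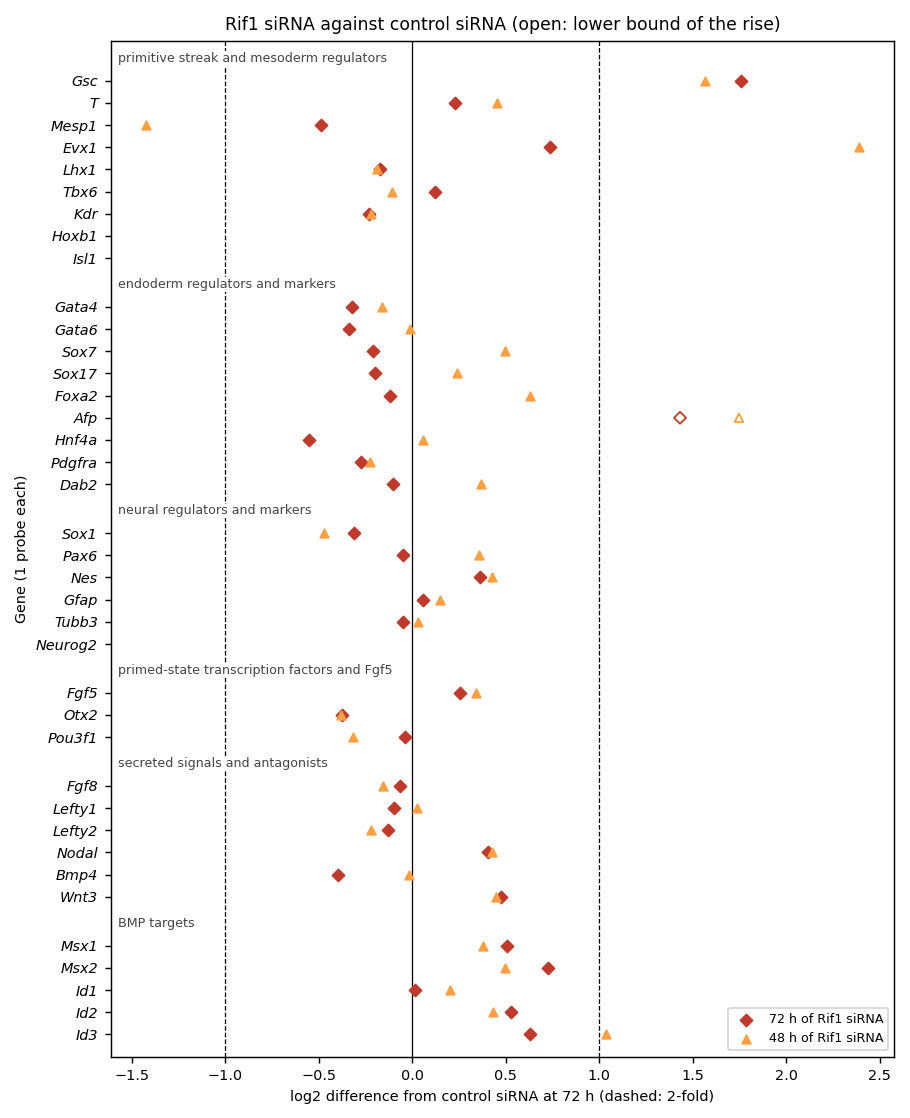
Log2 difference from the control siRNA array (x axis) of each gene after 72 h (diamonds) and 48 h (triangles) of Rif1 siRNA, with genes by role on the y axis. Open points are lower bounds, and dashed lines mark 2-fold. Gsc and Afp lie past 2-fold at both times, Evx1, Mesp1 and Id3 at 48 h.

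Among primitive streak and mesoderm regulators, Gsc was called higher at both times, Evx1 only in the 48 h comparison, and Mesp1 lower at 48 h. Gsc encodes goosecoid, a homeobox factor of the anterior streak and organizer. In untreated cells its level was 0.0195, not well above background, and on the other arrays it was 0.0255 (control siRNA), 0.0755 (knockdown, 48 h) and 0.0865 (knockdown, 72 h). Both knockdown arrays thus lay above both others. The difference from control siRNA was 1.76 (log2, 3.39-fold) at 72 h and 1.57 (2.96-fold) at 48 h. All of these levels are in the weak range of the arrays, and with normexp background correction the differences were 0.75 and 0.65, under 2-fold.

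Evx1, a homeobox gene of the posterior streak, was low on both 72 h arrays. Its level was 0.155 (untreated), 0.0353 (control siRNA), 0.185 (knockdown, 48 h) and 0.0589 (knockdown, 72 h). The groups with and without Rif1 siRNA overlapped. Evx1 was called lower with control siRNA than in untreated cells (−2.14), higher at 48 h than with control siRNA (2.39, 5.24-fold) and lower at 72 h than at 48 h (−1.65). Against the 72 h control, the value at 72 h was 0.74. Against untreated cells the 48 h value was 0.25 and the 72 h value −1.40 (2.63-fold lower). With normexp the 48 h and 72 h differences from control siRNA were 1.47 and 0.28.

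Mesp1, a regulator of early mesoderm, was not well above background in untreated cells (0.0184) and stood at 0.0387 with control siRNA, 0.0144 at 48 h and 0.0275 at 72 h. It was called lower at 48 h (−1.42), while the 72 h value was −0.49. The control siRNA array had the highest of the 4 levels. With normexp the 48 h difference was −0.78. T (Brachyury), a T-box factor that marks the streak, stood at 0.115, 0.0889, 0.122 and 0.104 in the order untreated, control siRNA, 48 h and 72 h, and its differences from control siRNA were 0.23 at 72 h and 0.45 at 48 h. The levels of T on both knockdown arrays thus bracketed that of untreated cells.

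Tbx6 (presomitic mesoderm) and Lhx1 (anterior mesoderm and organizer) gave differences between −0.19 and 0.21 in both Rif1 siRNA comparisons over the probes that passed. A second probe of Lhx1, which did not pass the filter, was well above background only in untreated cells (0.0719). Kdr, a receptor for VEGF and a marker of early mesoderm, had a main probe at 2.35, 2.20, 1.89 and 1.88 (in the order untreated, control siRNA, 48 h, 72 h) and a second one at 0.179, 0.105, 0.204 and 0.131. These probes disagreed in direction, since the main one differed from control siRNA by −0.22 at 48 h and the second by 0.95. Mean values for the Kdr gene are therefore not given.

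Of 11 probes of endoderm regulators and markers compared at each time, 1 was called higher, that of Afp, beside 2.83% of all probes at 72 h and 3.18% at 48 h. Afp encodes alpha-fetoprotein, a secreted protein of visceral endoderm and fetal liver. Its probe, averaged over 10 spots, was not well above background in untreated cells (0.0133) and with control siRNA (0.00824). It stood at 0.0533 after 48 h and 0.0428 after 72 h of knockdown. Both knockdown arrays were above both others. Against the lowest level well above background on the control siRNA array, Afp was at least 3.36-fold higher at 48 h and at least 2.70-fold higher at 72 h. Against the corresponding limit of the untreated array the bounds were 2.26-fold and 1.82-fold, and with normexp the log2 differences from control siRNA were 0.64 and 0.47, both under 2-fold.

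Of the other endoderm genes, 5 were lower on both 72 h arrays than on both others, though mostly by under 2-fold. Sox17, a SOX factor of definitive and primitive endoderm, stood at 0.471, 0.388, 0.459 and 0.338 in the order untreated, control siRNA, 48 h and 72 h, and its second probe at 0.318, 0.193, 0.273 and 0.173. Sox7, a related factor of parietal and primitive endoderm, gave 0.450, 0.253, 0.357 and 0.218. Foxa2, a forkhead factor of endoderm and node, gave 0.331, 0.213, 0.330 and 0.197. The 72 h levels of these genes were thus low with either siRNA. The adaptor protein gene Dab2, of extraembryonic endoderm, had 0.383, 0.220, 0.285 and 0.205, and the nuclear receptor gene Hnf4a, of visceral endoderm and liver, 0.250, 0.207, 0.215 and 0.141, in the same order of arrays.

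Gata4 and Gata6, GATA factors that specify primitive endoderm, and Pdgfra, a receptor expressed in it, had another order. Gata4 stood at 0.413, 0.291, 0.260 and 0.232, Gata6 at 0.531, 0.467, 0.464 and 0.370, and Pdgfra at 0.103, 0.0805, 0.0689 and 0.0667, so that both knockdown arrays were below both others. The 48 h and control siRNA levels of Gata6 differed by only −0.01 on the log2 scale. In 43.3% of all probes measured on 4 arrays both knockdown arrays were below both others, so this order is common.

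Over the 10 endoderm probes measured on all 4 arrays, the median log2 difference was −0.57 between control siRNA and untreated cells and all 10 were negative, from −1.03 to −0.18. Between 72 h and 48 h of Rif1 siRNA it was −0.47 over 11 probes, Afp included, and all 11 were negative, from −0.75 to −0.05. The corresponding medians over all probes were −0.01 and −0.01. Only 1 of these differences passed 2-fold (the second Foxa2 probe, −1.03, from 0.0873 in untreated cells to 0.0429 with control siRNA). At matched time, 72 h of Rif1 siRNA against control siRNA, the median was −0.21 and all 10 were again negative, from −0.55 for Hnf4a to −0.08 for the second Foxa2 probe. Over all probes that median was −0.07, and 63.1% were negative. At 48 h against the 72 h control the median was 0.30, with 7 of 10 positive. Against untreated cells the direction turned, with a median of −0.28 at 48 h and all 10 negative, from −0.67 for Gata4 to −0.002 for a Foxa2 probe.

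A wider list of 20 genes, taken as endoderm genes though Sox21, a SOX factor of neural progenitors, was among them, had 22 probes that passed. Its median was −0.25 between control siRNA and untreated cells, with 16 of 19 negative, and −0.19 between 72 h and 48 h of Rif1 siRNA, with 19 of 22 negative. Against control siRNA it was −0.01 at 72 h and 0.15 at 48 h. Of these 22 probes, 1 was called higher at 72 h and 2 at 48 h, beside 2.83% and 3.18% of all probes, and 0 were called lower. Foxa1, a forkhead factor related to Foxa2, was called higher at both times. It stood at 0.0256 in untreated cells, not well above background, and at 0.0470 with control siRNA, 0.230 at 48 h and 0.359 at 72 h, which gave differences from control siRNA of 2.29 and 2.93. Foxa1 and Foxa2 thus had different orders over the 4 arrays.

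**Figure D4:**
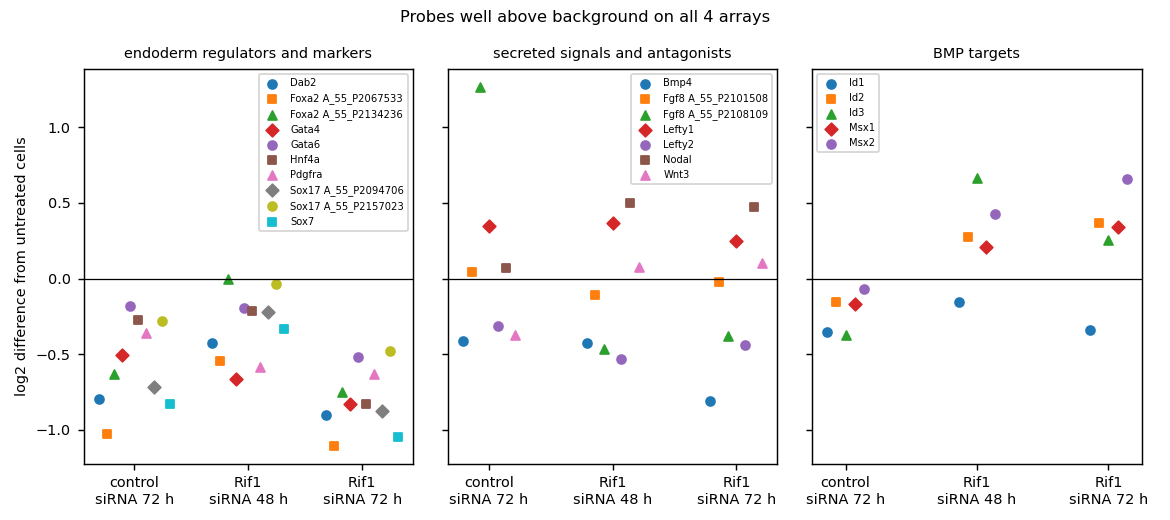
Log2 difference from untreated cells (y axis) on the other 3 arrays (x axis) for probes well above background on all 4 arrays, for endoderm genes, secreted signals and BMP targets. Each point is 1 probe. All 10 endoderm probes lie below 0 on the control siRNA array, and Id2, Id3, Msx1 and Msx2 lie above 0 on both knockdown arrays.

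Of 7 probes of neural regulators and markers compared at each time, 0 were called, beside 2.83% higher and 1.00% lower of all probes at 72 h and 3.18% and 1.19% at 48 h, so for a group of this size the count is near that of all probes. Sox1, a SOX factor of early neuroectoderm, stood at 0.159 (untreated), 0.191 (control siRNA), 0.138 (48 h) and 0.154 (72 h), with differences from control siRNA of −0.47 and −0.31. Its second probe gave −0.07 and −0.06. Nes, the intermediate filament nestin of neural progenitors, stood at 1.14, 0.781, 1.05 and 1.01 in the same order. The control siRNA array was thus the lowest of the 4 for Nes, and the differences from it were 0.42 at 48 h and 0.36 at 72 h. Pax6, a paired-box regulator of neural progenitors, gave 0.36 at 48 h and −0.05 at 72 h at levels from 0.0292 to 0.0387, and with normexp its 48 h difference was −0.01. Tubb3, a neuronal tubulin, was between 5.27 and 6.31, and the main probe of Gfap, an astrocyte filament, between 0.0378 and 0.0418 on the 4 arrays. The other probes of Gfap stayed at background on the 4 arrays. Neurog2, a proneural factor, was well above background only on the knockdown arrays, at 0.0101 and 0.00863, both below the limit of the control siRNA array, so no difference from control siRNA was detectable.

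The wider neural list had 24 probes that passed. Of 24 probes compared at 72 h, 3 were called higher and 1 lower, and of 23 at 48 h, 0 were called higher and 2 lower, beside 2.83% higher and 1.00% lower of all probes at 72 h and 3.18% and 1.19% at 48 h. Nkx6-1, a homeobox factor of ventral neural progenitors, was lower at both times (−1.81 at 72 h and −1.95 at 48 h). It stood at 0.0377 (untreated), 0.151 (control siRNA), 0.0391 (48 h) and 0.0429 (72 h), so the control siRNA array stood apart from the other 3. The SOX factor Sox3 was called higher at 72 h (1.28) and gave 0.98 at 48 h, and Dll1, a Notch ligand, gave 1.01 and 0.93. Sox3 and Dll1 were chosen from the list after their values were seen.

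Of 4 primed-state probes compared at each time 0 were called. Over all probes, 2.83% were called higher and 1.00% lower at 72 h, and 3.18% and 1.19% at 48 h. For a group of this size the count is near that of all probes. Otx2, a homeobox factor that drives the transition to the primed state, stood at 9.82 (untreated), 8.98 (control siRNA), 6.88 (48 h) and 6.93 (72 h). Both knockdown arrays were below both others, with differences from control siRNA of −0.38 at 48 h and −0.37 at 72 h. These are within the SD of 0.43 for strong probes in the same comparisons, though below their 5th percentile. The second Otx2 probe gave −0.26 and −0.15. Pou3f1 (Oct6), a POU factor of the primed epiblast, stood at 3.61, 3.06, 2.46 and 2.97, with differences of −0.31 at 48 h and −0.04 at 72 h. Fgf5, the growth factor used most often to mark primed cells, stood at 0.139, 0.0943, 0.119 and 0.113, and its differences from control siRNA were 0.34 and 0.26. By these probes all 3 genes had their highest level in untreated cells, whereas the second Otx2 probe was highest with control siRNA (0.244, against 0.239 in untreated cells).

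A wider list of 18 primed-state genes, all 28 probes of which passed, had 0 calls at either time, beside 2.83% higher and 1.00% lower of all probes at 72 h and 3.18% and 1.19% at 48 h. Its median difference from control siRNA was −0.14 at 72 h and −0.17 at 48 h, with 20 of 28 negative at each time, against −0.07 over all probes. The largest absolute differences at 72 h belonged to Grhl2, an epithelial transcription factor (−0.53), and Car14, a carbonic anhydrase (−0.41). The Grhl2 value is from a weak probe with levels of 0.0467 to 0.0689, and its other probe, with levels of 1.63 to 2.26, gave −0.18.

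Secreted signals included a pair of related genes that parted. Nodal, a TGF-beta ligand that patterns the epiblast and streak, stood at 5.92 (untreated), 6.21 (control siRNA), 8.35 (48 h) and 8.22 (72 h). Both knockdown arrays lay above both others, by 0.43 and 0.40 over control siRNA, which did not pass 2-fold. These differences are no larger than the SD of strong probes in the same comparisons (0.43), though above their 95th percentile. Lefty1 and Lefty2 encode inhibitors of Nodal that are themselves induced by it. Lefty1 stood at 5.37, 6.81, 6.93 and 6.36, and Lefty2 at 5.70, 4.60, 3.95 and 4.20. Against control siRNA Lefty1 differed by 0.03 at 48 h and −0.10 at 72 h, and Lefty2 by −0.22 and −0.13. Untreated cells thus had the lowest level of Lefty1 and the highest of Lefty2.

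Bmp4, a ligand that supports ES cell self-renewal with LIF and later induces mesoderm, stood at 10.8 (untreated), 8.11 (control siRNA), 8.02 (48 h) and 6.16 (72 h). Its difference from control siRNA was −0.02 at 48 h and −0.40 at 72 h, and that between control siRNA and untreated cells was −0.41. Wnt3, a ligand needed for streak formation, stood at 0.0622, 0.0480, 0.0656 and 0.0667. Its differences from control siRNA were 0.45 at 48 h and 0.47 at 72 h, and with normexp they were 0.16 and 0.18. The knockdown levels of Wnt3 were close to that of untreated cells.

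Fgf8, a growth factor of the streak, was represented by 3 probes that did not agree. The first 30 bases of each are shown as printed on the array design, because the probes of this gene gave different results. A_55_P2101508, which stands for the gene, lies at chr19:45811355-45811414, A_55_P2108109 at chr19:45811668-45811727 and A_55_P2101506 at chr19:45816855-45816914, all on the minus strand of mm9.
A_55_P2101508: aaggggaggggctggggagctgccttctag
A_55_P2108109: tggagaacaactacacggcgctgcagaacg
A_55_P2101506: gcagcagggctggaaagaactttacaaatc

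A_55_P2101508 stood at 0.0890, 0.0917, 0.0824 and 0.0875 in the order untreated, control siRNA, 48 h and 72 h, and differed from control siRNA by −0.16 at 48 h and −0.07 at 72 h. A_55_P2108109 stood at 0.0469, 0.113, 0.0339 and 0.0361, and was called lower at 48 h (−1.73) and at 72 h (−1.64) and higher with control siRNA than in untreated cells (1.26). The control siRNA array thus stood apart from the other 3 for this probe, as for Nkx6-1. A_55_P2101506 stayed at background on the 4 arrays. The call of Fgf8 therefore rests on 1 probe and 1 array, and the median over both measured probes was −0.94 at 48 h and −0.85 at 72 h.

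Of the 5 BMP targets, 1 was called higher at 48 h (Id3) and 0 at 72 h, beside 3.18% and 2.83% of all probes. Their differences from control siRNA ran from 0.20 to 1.03 at 48 h and from 0.01 to 0.73 at 72 h. Both comparisons share the control siRNA array, on which all 5 stood below their untreated level, by differences from −0.37 to −0.07. The trophoblast markers and the collagen genes given above also had positive differences at both times, and their part in the values of the BMP targets was not tested. The ID genes encode helix-loop-helix proteins that lack a DNA-binding region and block other such factors. Id3 stood at 3.20 (untreated), 2.47 (control siRNA), 5.07 (48 h) and 3.83 (72 h). Its difference from control siRNA was 1.03 (2.05-fold) at 48 h and 0.63 (1.55-fold) at 72 h, and from untreated cells 0.66 and 0.26. Id2 stood at 1.79, 1.60, 2.16 and 2.31, with differences from control siRNA of 0.43 at 48 h and 0.53 at 72 h. For both genes the knockdown arrays lay above both others. Id1 stood at 6.09, 4.76, 5.47 and 4.81, and its difference from control siRNA was 0.20 at 48 h and 0.01 at 72 h. Unlike Id2 and Id3, Id1 was highest in untreated cells.

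Msx1 and Msx2 encode homeobox repressors induced by BMP in mesoderm and ectoderm. Msx1 stood at 0.0759, 0.0675, 0.0878 and 0.0960, and Msx2 at 0.122, 0.116, 0.164 and 0.193. Differences from control siRNA were 0.38 at 48 h and 0.51 at 72 h for Msx1, and 0.49 and 0.73 for Msx2. Both knockdown arrays again lay above both others. With normexp the differences of Msx1 were 0.12 and 0.22, and that of Msx2 at 72 h was 0.45. The median over the 5 BMP targets was 0.43 at 48 h and 0.53 at 72 h against control siRNA, compared with −0.07 over all probes at each time, and −0.17 between control siRNA and untreated cells. Against untreated cells it was smaller, 0.27 at 48 h and 0.34 at 72 h, compared with −0.08 over all probes at each time. There 4 of the 5 were positive, and Id1 was negative at both times.

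Components of the signaling pathways were counted from lists of their genes. In the BMP pathway, 1 of 20 probes compared was called higher at each time, beside 2.83% of all probes at 72 h and 3.18% at 48 h. This was Bmpr1b, a type I BMP receptor, which was not well above background in untreated cells and with control siRNA and stood at 0.0538 at 48 h and 0.0537 at 72 h. With its own control siRNA level (0.0173) as the limit, since this was above the lowest level well above background there, Bmpr1b was at least 3.11-fold and 3.10-fold higher. A second probe of Bmpr1b stood at 0.0111 and 0.0140 on the knockdown arrays, below the limit of the control siRNA array. The Nodal and activin pathway had 0 of 24 probes called at either time. Its largest absolute differences at 72 h were those of Acvr2a, an activin receptor (0.25), and Gdf3, a ligand (−0.23). The FGF and ERK pathway had 0 of 27 called at either time, with Spred1, an inhibitor of ERK signaling, at −0.54 and Fos, an early response gene, at 0.42 at 72 h. The Spred1 value is from a weak probe (0.0216 to 0.0437), and its other 2 probes gave −0.23 and −0.25. Over all probes, 1.00% were called lower at 72 h and 1.19% at 48 h, beside the higher shares given above. For lists of this size, the 0 calls of the Nodal and FGF pathways are near the count of all probes.

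In the Wnt pathway, 0 of 26 probes were called at 72 h and 1 was called higher at 48 h. Over all probes, 2.83% were called higher and 1.00% lower at 72 h, and 3.18% and 1.19% at 48 h. For a list of this size the count is near that of all probes. The called probe was that of Cdx1, a homeobox target of Wnt signals, at 1.15, which stood at 0.505, 0.520, 1.15 and 0.848 on the 4 arrays and gave 0.71 at 72 h. Wnt8a, a streak ligand, gave 0.59 at 48 h and 0.46 at 72 h. Of 18 further streak and mesoderm probes, 2 were called higher at each time, beside 2.83% of all probes at 72 h and 3.18% at 48 h. Snai1, a zinc finger repressor of epithelial genes active in the streak, was called at both, with levels of 0.253, 0.221, 0.588 and 0.577 and differences of 1.41 at 48 h and 1.38 at 72 h. Both knockdown arrays were thus above both others for Snai1, as for the summed trophoblast markers. The other call at 72 h was Cdx2 (1.08), which is also a trophoblast marker, and the other at 48 h was Foxc1, a forkhead factor of mesoderm, measured only on the knockdown arrays (0.0527 at 48 h and 0.00833 at 72 h). Cdx2 and Foxc1 were named after their values were seen.

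The order of the 4 arrays summarized these patterns, and it was looked at only after the values were seen, as 4 orders. For 16 of the 39 probes of differentiation genes measured on all 4 arrays (41.0%), both 72 h arrays were below both others, an order found in 13.7% of all 22518 such probes. These were probes of 14 genes, and 7 of 10 endoderm and 4 of 6 neural probes were among them, while the 7 of the secreted signals gave 0. In the wider lists the order was found in 8 of 19 endoderm probes (42.1%, Sox21 counted among the 19) but in only 2 of 18 neural probes (11.1%). The opposite order, both 72 h arrays above both others, was found in 2 of 39 (5.13%), beside 11.0% of all probes. Both knockdown arrays were above both others for 6 of 39 (15.4%), beside 18.1% of all probes. Of these 6, 4 were BMP targets (Id2, Id3, Msx1 and Msx2), the others being Nodal and Wnt3. In the BMP pathway list, 3 of 16 probes (18.75%) had this order. Both knockdown arrays were below both others for 13 of 39 (33.3%), beside 43.3%, among them 3 of 4 primed-state probes. The order ignores size. Some differences, such as those of Gfap, Pax6 and Lhx1, are within the SD given above for control siRNA against untreated cells at their level. Time in culture and the arrays themselves cannot be told apart in the first order, since each 72 h condition is 1 array.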

How the data were processed

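Total RNA of 4 E14tg2a samples was measured on one-color arrays. Per the labels, the authors ran Agilent Feature Extraction (version 11.5.1.1 in the submitters' processing notes), and the methods give default parameters. What the authors deposited is an intensity per spot, background-subtracted by that software, and a second table in which each value is a ratio to its array's 75th percentile. Positions in the files are on mm9.

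Each intensity was divided by the 75th percentile of its array over 43020 non-control spots and taken to log2. Outlier spots were left out, repeated spots averaged (median SD of 0.06 to 0.07, log2, for probes well above background), and 0 spots were saturated. The filter used the cutoffs of the methods, the 20th to 100th percentile and detected or compromised on at least 2 of 4 arrays. On how many arrays the percentile must be met is not given in the sources used here, and at least 1 was taken. This left 27748 of 39429 probes, slightly more than the methods state. A probe dim on 1 of 2 arrays got a lower bound, from the lowest level well above background there or from its own level where that was higher. The precision is limited by the number of arrays, 1 per condition, and no test was made. Alternatives were normexp background correction (offset 50), quantile normalization, the deposited ratios, other filters, dim signals as given, a 4-fold threshold, outlier spots kept, the median of a gene's probes and untreated cells as control. The steps were tested on simulated data.

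The genes and the gene lists were chosen with earlier results of these data known. All genes with a probe that passed were named. From the wider lists, those called in the same direction at both times were named. Where there were none, those with the largest absolute difference at 72 h among probes measured on both arrays were named. Lower bounds were left out of this ranking. Any other gene given with values from the wider lists is marked as chosen after its value was seen. The cell type markers named in the text were picked outside these rules and are not so marked. All 40 symbols matched the RefSeq table. The scripts ran in Python 3.11.15 (pandas 2.3.3; numpy 2.4.6), and normexp came from limma 3.58.1 for R 4.3.3.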

Additional observations from a re-analysis of the deposited data

How the results depend on the processing

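No paired analysis was possible because there was only 1 array per condition, and for the same reason no array could be left out. Of 122 counts and medians under another setting, for the whole set or counts of its endoderm and BMP target orders, 103 stayed within the limit used (1.5 times for a count, 0.256 on the log2 scale for a median, the SD of the difference of control siRNA from untreated cells), and no called value changed sign. Of 402 such values for single genes and medians of role groups, 382 stayed within it. The deposited ratios, outlier spots kept and the other filters moved none. Normexp gave 2 probes higher and 1 lower at 48 h, 0 higher at 72 h, and 0 higher and 1 lower for control siRNA against untreated cells. It also brought nearer to 0 the differences of Gsc, Afp, Evx1, Mesp1, Msx1, Msx2, Pax6 and Wnt3, with the values given beside them, and the cause was not tested. Quantile normalization gave 1 lower for control siRNA against untreated cells, and dim signals taken as given gave 2 higher there. With a 4-fold threshold, 1 was higher at 48 h, 0 at 72 h and 0 with control siRNA, and 0 were lower at 48 h, 0 at 72 h, 0 between the times and 1 with control siRNA. Against untreated cells in place of control siRNA, 2 were higher and 0 lower at 48 h with a median of −0.16, and 1 was higher and 3 lower at 72 h. There the endoderm median was −0.28 at 48 h and −0.83 at 72 h, and that of streak and mesoderm regulators −0.14 at 72 h. Against control siRNA the streak and mesoderm median was 0.21 at 72 h, so its sign turned. The comparison of role groups with untreated cells was added after seeing the data. Endoderm probes with both 72 h arrays below both others numbered 6 to 7 over the settings tried, and BMP targets with both knockdown arrays above both others 4 in each. Weak probes were limited by background: the lowest measurable level differed between arrays from 0.0236 to 0.00543.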

Other observations

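Lefty1 and Lefty2 changed unequally within the arrays. The log2 ratio of the Lefty1 to the Lefty2 signal was −0.09 in untreated cells and 0.57 with control siRNA, 0.81 after 48 h and 0.60 after 72 h of knockdown. All 3 transfected samples were thus on one side of the untreated sample. As each probe has its own response, the ratio shows only that the change was unequal, and its cause was not tested.

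The Notch target Hes5 and the tubulin-binding protein gene Dcx were both from the wider neural list and picked after their values were seen. Hes5 stood at 0.159 in untreated cells, 0.164 with control siRNA, 0.0551 with Rif1 siRNA at 48 h and 0.114 at 72 h. Both knockdown arrays were thus below both others, the order of 43.3% of all probes. Hes5 was called lower at 48 h (−1.58, 2.98-fold), as were 1.19% of all probes, and gave −0.53 at 72 h. One probe of Dcx was well above background in untreated cells (0.164) and at 72 h of Rif1 siRNA (0.0516) but on neither of the other 2 arrays. It was among the 3 probes of that list called higher at 72 h, at least 3.25-fold above control siRNA. The other 2 probes of Dcx stayed at background. Thbd, the receptor thrombomodulin of parietal endoderm and likewise picked after its values were seen, stood at 0.0265, 0.0209, 0.0565 and 0.0404, with 1.43 at 48 h and 0.95 at 72 h over control siRNA, and differed in this from Sox7, another gene of parietal endoderm.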
